A study of Mus musculus with 6 samples.

Results

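Proprotein convertases are subtilisin-like proteases of the secretory pathway that cut precursor proteins after basic residues and so turn growth factors, receptors and enzymes into their active forms. Furin, PCSK5, PCSK6 (also called PACE4) and PCSK7 are its broadly expressed members, and MBTPS1 (site-1 protease) is a relative that cuts membrane-bound transcription factors in the Golgi. Corin is a transmembrane serine protease of heart muscle cells that converts pro-atrial natriuretic peptide to the active hormone, and corin itself is activated by PCSK6. The 6 genes Pcsk6, Pcsk5, Pcsk7, Furin, Mbtps1 and Corin are described here in embryonic mouse heart. Every probe set that the platform annotation assigns to 1 of these genes and to no other gene was taken, which gave 12 of 45037 probe sets and 6 of 18193 genes. The set was chosen by the large difference of Pcsk6 between the sample groups, known from earlier results of these data, together with its relatives and its substrate corin. The values of these 6 genes in that comparison are therefore a description, and no test of them is given as support.

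The study put RNA of hearts at E12.5, in the C57BL/6 strain, on Affymetrix 3' arrays that hold 1 RNA sample each. Arrays 1 to 3 of one group are labelled wildtype, and arrays 1 to 3 of the other group are labelled Rhau KO, in which Rhau, an older name of the G-quadruplex helicase gene Dhx36, was deleted. No drug or other treatment is named for either group. How the deletion was made, which cells carried it and whether the controls carry a Cre or floxed allele are not stated in the labels or series text. The series text gives 3 hearts for each group, and nothing states that each array holds RNA of 1 embryo, so the spread between arrays may be partly technical.

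The targeted gene went against its label. The 3 Dhx36 probe sets were at 8.40 to 8.99 (log2 signal) over the wildtype-labelled arrays and at 9.40 to 10.48 over the Rhau KO-labelled ones, with no overlap. Which exons were deleted is not stated in the labels, and probe sets that lie elsewhere in the gene cannot check the deletion. Every direction below is that of the deposited labels. Whether the labels were exchanged was not tested; if they were, every higher, lower, rose and fell below would turn round. Y-linked signal is the average over the genes Uty, Kdm5d and Eif2s3y of each one's linear signal in percent of its own highest array. It was 1.23, 2.04 and 39.3 on wildtype-labelled arrays 1, 2 and 3 and 59.6, 82.8 and 100 on Rhau KO-labelled arrays 1, 2 and 3. Xist signal was present too on wildtype-labelled array 3 and Rhau KO-labelled arrays 1 and 2, called the mixed arrays below, each with over 10% of the highest level of both. Whether these arrays hold RNA of several embryos was not tested. Results are given below also after adjusting for Y-linked signal in the fit and within those 3 mixed arrays. The 15 cardiomyocyte markers all passed the filter on low signal, as did all 11 endothelial, 11 cushion mesenchyme, 9 epicardial and 9 measured red blood cell markers, and no marker of these lists was at 0 on any array. The median log2 signal was 6.68, 6.69 and 6.74 on wildtype-labelled arrays 1, 2 and 3. It was 6.75, 6.80 and 6.78 on Rhau KO-labelled arrays 1, 2 and 3, so each of these lay above each wildtype-labelled array.

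Because DHX36 resolves G-quadruplexes, which form in nucleic acid rich in guanine, the bases before the start sites of Pcsk6 and Corin are shown, as the member with the highest difference and the protease it activates. RefSeq start-site windows of assembly GRCm38.p6 were matched for all 6 genes. The 250 bases before the Pcsk6 start are chr7:65861886-65862135 on the plus strand, and those before the Corin start are chr5:72504541-72504790 on the minus strand. Capitals mark a match to the G-quadruplex motif, which is 4 runs of GGG with 1 to 7 bases between runs, searched on both strands.
Pcsk6: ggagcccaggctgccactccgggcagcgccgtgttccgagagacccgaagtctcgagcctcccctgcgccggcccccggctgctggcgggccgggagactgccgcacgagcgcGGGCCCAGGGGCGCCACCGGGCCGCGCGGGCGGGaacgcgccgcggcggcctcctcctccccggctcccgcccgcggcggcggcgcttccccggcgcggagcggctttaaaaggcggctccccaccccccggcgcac
Corin: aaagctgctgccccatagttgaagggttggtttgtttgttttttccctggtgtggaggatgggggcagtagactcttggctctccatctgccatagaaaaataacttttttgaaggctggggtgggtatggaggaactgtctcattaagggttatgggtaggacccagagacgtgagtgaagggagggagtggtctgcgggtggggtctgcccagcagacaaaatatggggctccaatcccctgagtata
The Pcsk6 window held the motif on the strand of the gene, in a stretch of 34 bases, and had a GC content of 81.2%. The Corin window, at 51.2% GC, held 11 runs of 3 or more G on the strand of the gene but no match to the motif. Pcsk5, Pcsk7, Mbtps1 and 1 of the 2 Furin windows also held a match, so 5 of the 7 member windows did, against 16.6% of 32851 windows of the same length. All 5 had at least 64% GC, and among all windows of at least 60% GC the motif was found in 38.6%. The motif AGATAA, bound by GATA factors, was found in 0 of the 7 windows and in 9.99% of all windows. TNAAGTG, bound by NKX2-5, was found in 1 of the 7, the other Furin window, and in 10.1% of all windows, both motifs searched on both strands. A match is a description of the letters, not a site of binding.

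Pcsk6 signal was higher on every array labelled Rhau KO than on any array labelled wildtype. PCSK6 binds the extracellular matrix and processes ligands of the TGF-beta family, among them the left-right signals NODAL and LEFTY. Its only probe set, 1426981_at, had log2 signals of 6.28, 5.61 and 6.84 on wildtype-labelled arrays 1, 2 and 3 and of 8.54, 8.35 and 8.04 on Rhau KO-labelled arrays 1, 2 and 3. The lowest Rhau KO array thus lay above the highest wildtype array by more than a doubling of the signal, and the wildtype arrays were the more scattered group. Group means were 6.24 ± 0.62 and 8.31 ± 0.25 (log2 signal, SD, n = 3 each). The difference of 2.07 (SE 0.277) on the log2 scale is a 4.19-fold higher level and was 14th in size from the top of the 27022 probe sets tested. With exchanged labels the same values would be a 4.19-fold lower level, 14th from the bottom. Replicate 2 labelled wildtype lay below the filter level of 5.90, the signal under which the lowest 40% of probe sets fall. The group mean labelled wildtype lay just above it, so the fold rests on a dim group. With a pseudocount of 64 added to the linear signal, which damps dim values, the difference was 1.43.

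In each of the 6 fits that leave out 1 array, the difference of Pcsk6 kept its sign and its call. It ran from 1.75 without replicate 2 labelled wildtype to 2.36 without replicate 3 labelled wildtype. These calls are a description and no support, since Pcsk6 was chosen by this difference. Replicate 3 labelled wildtype was the highest of its group for Pcsk6 and also the only one of that group with more than a trace of Y-linked signal. Among the arrays labelled Rhau KO the order was the opposite: Pcsk6 was highest in replicate 1, which had the least Y-linked signal, and lowest in replicate 3, which had the most. Adjusted for Y-linked signal the difference was 1.60 (SE 0.611) and short of limma's threshold, and within the 3 mixed arrays it was 1.60 (SE 0.215), where the wildtype label keeps 1 array. The part of embryo sex in the difference cannot be told apart from that of the label on these arrays.

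**Figure D1:**
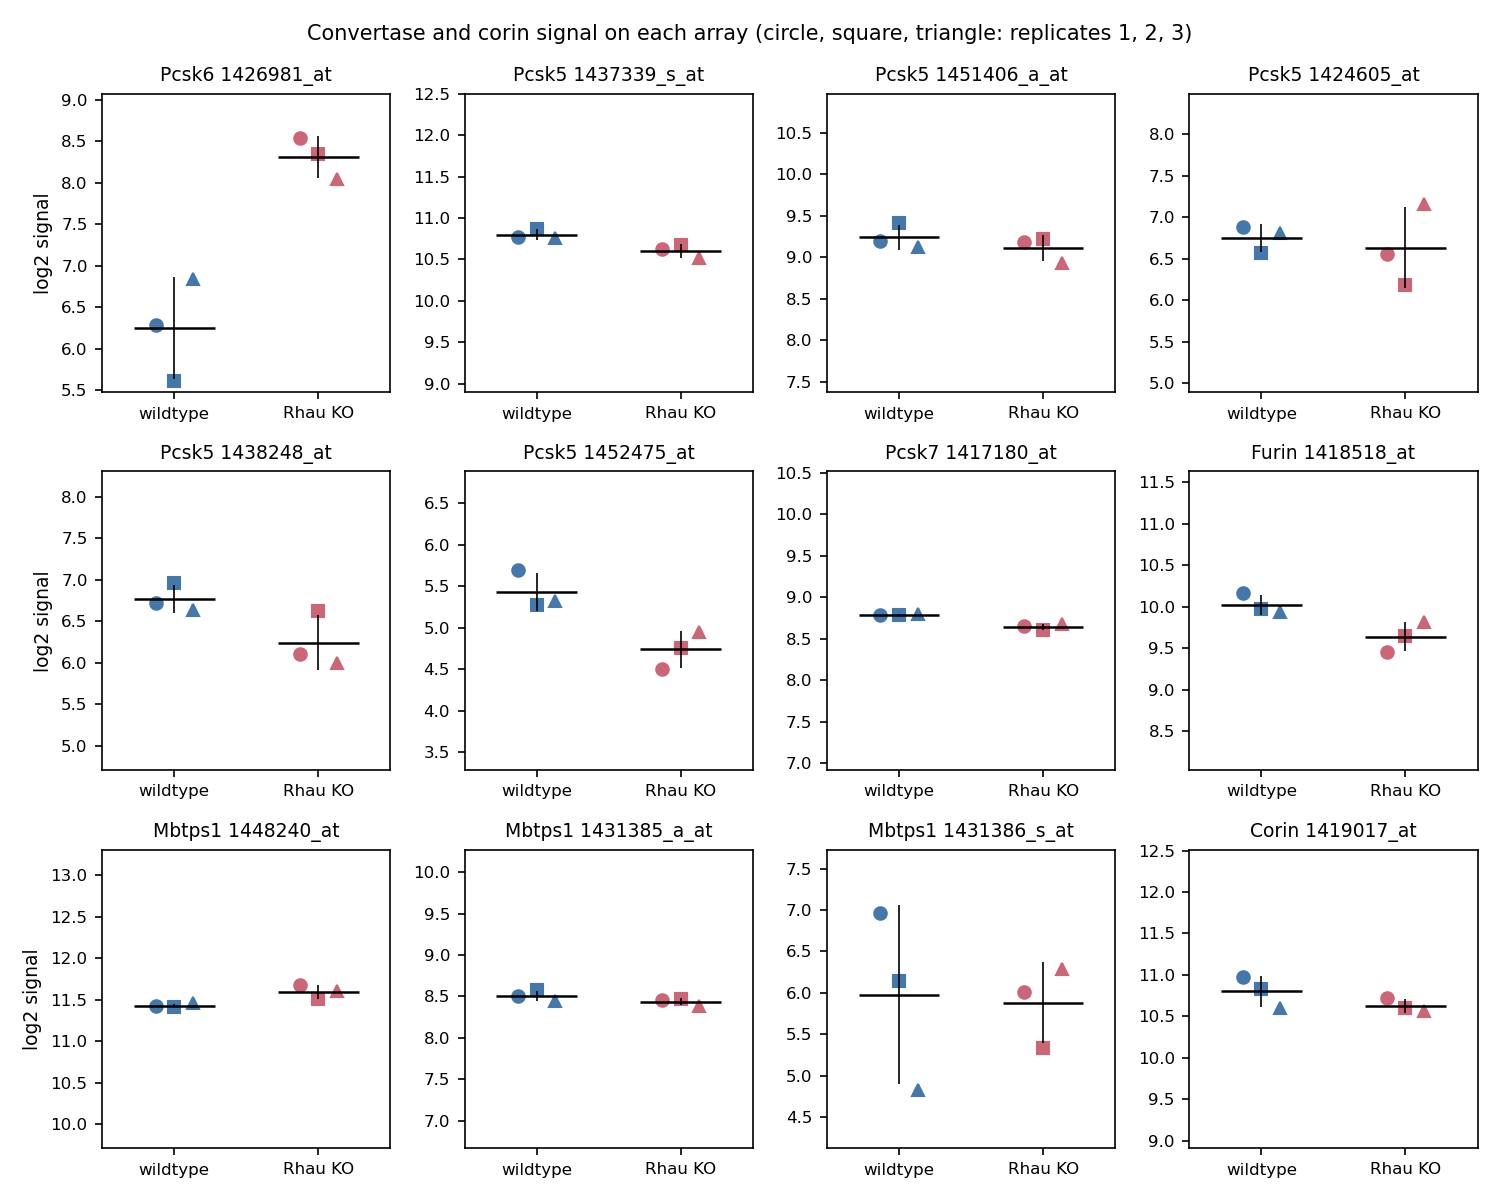
Log2 signal of the 12 probe sets of the 6 genes on each array, with wildtype in blue and Rhau KO in red, replicates 1, 2 and 3 as circle, square and triangle, lines at the group means and bars of 1 SD (n = 3 each); all panels span the same range of the log2 scale. Pcsk6 moves from 5.61 to 6.84 under the wildtype label to 8.04 to 8.54 under the Rhau KO label, while Furin, Pcsk7 and Corin lie within narrow ranges.

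Furin, the convertase of the trans-Golgi network that processes a wide range of precursors, ran the other way. Probe set 1418518_at was at 10.16, 9.98 and 9.93 on wildtype-labelled arrays 1, 2 and 3 and at 9.46, 9.64 and 9.81 on Rhau KO-labelled arrays 1, 2 and 3 (log2 signal). The groups did not overlap, though replicate 3 labelled Rhau KO lay close to replicate 3 labelled wildtype. The difference was -0.39 (SE 0.0993) on the log2 scale, a 1.31-fold lower level, with means of 10.02 ± 0.12 and 9.64 ± 0.18 (SD, n = 3 each). Without replicate 1 or 2 labelled wildtype it was -0.32 or -0.41, and without replicate 1 or 2 labelled Rhau KO -0.30 or -0.39. Furin no longer passed limma's threshold in these 4 fits. Adjusted for Y-linked signal the difference was -0.52 (SE 0.222), and within the 3 mixed arrays it was -0.38 (SE 0.139), also short of the threshold.

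Pcsk5, which processes GDF11 and is needed for heart and axial development, was measured by 5 probe sets, and all 5 had lower means under the Rhau KO label. The brightest, 1437339_s_at, was at 10.77, 10.87 and 10.75 on wildtype-labelled arrays 1, 2 and 3 and at 10.62, 10.68 and 10.52 on Rhau KO-labelled arrays 1, 2 and 3 (log2 signal). Its groups did not overlap, and the difference was -0.19 (SE 0.0658). Such probe sets with the suffix s can pick up transcripts of other genes as well. Probe set 1438248_at differed by -0.53 (SE 0.233) and 1452475_at by -0.69, both without overlap, but 1452475_at lay below the filter on low signal, at a mean of 5.08. The remaining Pcsk5 probe sets, 1451406_a_at and 1424605_at, differed by -0.13 (SE 0.108) and -0.12 (SE 0.256) with overlapping groups. Which Pcsk5 isoform each probe set measures is not given in the annotation. Adjusted for Y-linked signal the values of 1437339_s_at, 1424605_at and 1438248_at were -0.06, -0.60 and -0.29. That of 1451406_a_at was 0.22, so the lower direction was no longer common to all of them.

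Pcsk7, a membrane-bound convertase, had the tightest replicates of the 6 genes. Probe set 1417180_at was at 8.79, 8.79 and 8.79 on wildtype-labelled arrays 1, 2 and 3 and at 8.65, 8.61 and 8.68 on Rhau KO-labelled arrays 1, 2 and 3 (log2 signal). The groups were apart, by a difference of -0.14 (SE 0.0880). The SE is larger than the scatter of these arrays because limma draws the variance of each probe set towards that of probe sets with like signal. Only 0.744% of probe sets had a smaller residual SD than Pcsk7.

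Mbtps1 had no single direction over its 3 probe sets. The brightest, 1448240_at, was at 11.42, 11.41 and 11.46 on wildtype-labelled arrays 1, 2 and 3 and at 11.67, 11.51 and 11.60 on Rhau KO-labelled arrays 1, 2 and 3 (log2 signal). These groups did not overlap, with a difference of 0.16 (SE 0.0570) that passed limma's threshold only without replicate 2 labelled Rhau KO, at 0.21. Probe set 1431385_a_at differed by -0.07 (SE 0.0980). Probe set 1431386_s_at, close to the filter level, ranged from 4.83 to 6.97 within the wildtype label alone and differed by -0.10 (SE 0.484). Its difference changed sign when single arrays were left out, from -0.68 to 0.39.

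Corin, by contrast, overlapped between the labels. Probe set 1419017_at was at 10.97, 10.83 and 10.60 on wildtype-labelled arrays 1, 2 and 3 and at 10.72, 10.59 and 10.56 on Rhau KO-labelled arrays 1, 2 and 3 (log2 signal). Replicate 1 labelled Rhau KO lay above replicate 3 labelled wildtype. The difference was -0.18 (SE 0.0900), with means of 10.80 ± 0.18 and 10.62 ± 0.08 (SD, n = 3 each), and it ran from -0.28 without replicate 3 labelled wildtype to -0.10 without replicate 1 labelled wildtype. Adjusted for Y-linked signal it was 0.23 (SE 0.145), and within the 3 mixed arrays 0.05 (SE 0.117). The direction for Corin thus turned with the handling of those arrays. A difference that misses the threshold does not show that the levels were equal.

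**Figure D2:**
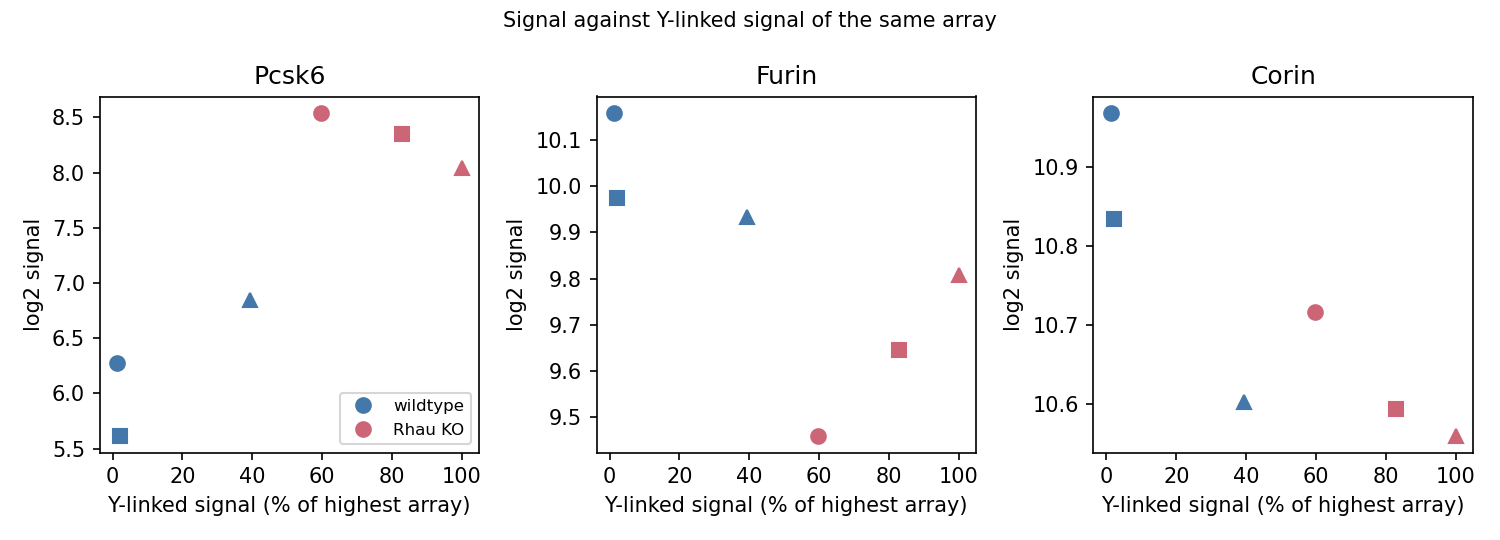
Log2 signal of Pcsk6, Furin and Corin against the Y-linked signal of the same array in percent of the highest array, with wildtype in blue and Rhau KO in red and replicates 1, 2 and 3 as circle, square and triangle; the y axes differ in range and do not start at 0. The Pcsk6 arrays fall into the labels with a gap from 6.84 to 8.04, whereas replicate 3 labelled wildtype lies among the Rhau KO arrays for Corin, at 10.60.

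Of the 12 probe sets, 11 passed the filter. Among these, Pcsk6 was called higher and Furin lower by limma at an adjusted p below 0.05, where 6.75% of all 27022 probe sets were called higher and 6.88% lower. The Rhau KO arrays lay wholly above the wildtype arrays for 2 of the 11 and wholly below for 4, against 19.4% and 14.5% of all probe sets. Nothing is read from these counts, since the set was chosen with this comparison known. The median difference of the 11 was -0.13, beside 0.04 over all probe sets tested.

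**Figure D3:**
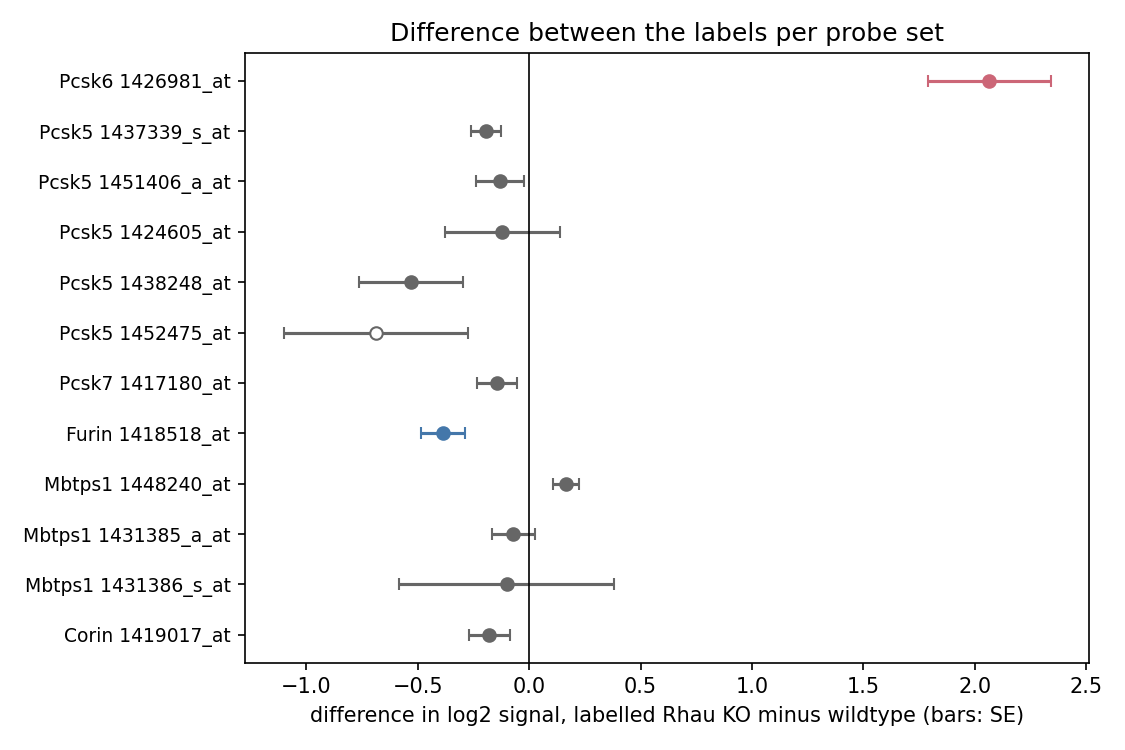
Difference in log2 signal, labelled Rhau KO minus wildtype, for each of the 12 probe sets with bars of 1 SE from limma (n = 3 each); red and blue points were called higher and lower, grey points were not called, and the open point lay below the filter, with its SE from a fit without one. Pcsk6 at 2.07 stands alone on the right. Of the 12 differences 10 are below 0, but 5 of these are probe sets of Pcsk5, and nothing is read from this count.

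The array profile of Pcsk6 over the 6 arrays was most like those of Mex3a, Rgs2, Rnf2, Pirt and C1qtnf12, with Pearson correlations of 0.997 to 0.993 across log2 signals. These genes differed between the labels by 0.24 to 0.75, far less than Pcsk6. In all, 536 genes had a correlation above 0.9 with Pcsk6. For Corin the closest were Leprotl1, Stk39, Dok7, Six5 and Spns2, at 0.986 to 0.981, and 67 genes had a correlation above 0.9. The genes of each pair share the same 6 arrays and are no independent points.

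Genes that neighbour Pcsk6 on chromosome 7 did not share its difference. The nearest measured genes above the filter were Tm2d3 on one side, at 0.0029, and Snrpa1 and Selenos on the other, at 0.08 and -0.21 (log2 difference), of which Selenos was called lower (limma, adjusted p = 0.0285). Next to Corin, on chromosome 5, Atp10d fell by 0.54 on the log2 scale (limma, adjusted p = 0.00915). Commd8, Nfxl1 and Zar1, at -0.07, 0.18 and -0.10, were not called. The gene order is that of RefSeq on GRCm38.p6, and these neighbours were looked at after the values of the members were seen.

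Other genes of the convertase and corin pathways were taken from 8 lists, with 1 probe set for each gene, the brightest. Of 102 such genes above the filter, 8 rose, 14 fell and 80 did not pass limma's threshold. Over all 12416 genes above the filter 6.77% were called higher and 9.75% lower, with a median difference of 0.01. Adjusted for Y-linked signal 0 of the pathway genes were called in either direction, and within the 3 mixed arrays 3 were called higher and 4 lower. In bulk hearts, fewer cells of a type and less RNA per cell cannot be told apart. In the same arrays 5 of 11 endothelial markers rose and 0 fell, with summed linear signals of 15092 to 16172 under the wildtype label and 17228 to 18043 under the Rhau KO label. Of 9 red blood cell markers 6 fell and 0 rose, with sums of 93309 to 99588 and 71239 to 89205, and of 15 cardiomyocyte markers 1 rose and 5 fell, with sums of 333351 to 345582 and 291667 to 332929. Of 11 macrophage markers 2 rose and 0 fell, with sums of 3342 to 3671 and 4452 to 5401. Lyz2, the lysozyme gene, differed by 2.98 on the log2 scale, and without it the sums overlapped, at 3177 to 3514 and 3333 to 4062; this sum was added after the values were seen. The part of these cell types in the results on the pathway genes was not tested.

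The remaining convertases were dim. Of the 6 measured genes in that list only Pcsk4, a convertase of germ cells, Serpinb8, an inhibitor of furin, and Mbtps2 passed the filter; Pcsk1, the neuroendocrine convertase, was at 4.74 ± 0.82 and 4.21 ± 1.15 (log2 signal under the wildtype and Rhau KO labels, SD, n = 3 each). Mbtps2, the site-2 protease that cuts after MBTPS1, rose by 0.28 (SE 0.0750, limma, adjusted p = 0.0339), and this call was lost without any 1 of 5 arrays: replicate 1, 2 or 3 labelled wildtype or replicate 1 or 2 labelled Rhau KO, with values from 0.23 to 0.30. Serpinb8 differed by -0.67 without a call, and Pcsk4 by -0.27. Pcsk4 was at 5.67 on Rhau KO-labelled array 3 and at 6.57 to 6.79 on the other arrays. The median of the list was -0.27, and 0.07 without Rhau KO-labelled array 3. Of 11 measured serine proteases related to corin only Tmprss6 passed the filter, at 0.61 without a call (limma, adjusted p = 0.122). Its wildtype-labelled mean of 5.74 lay below the filter level, so it passed the filter only through its higher group. The fit by eBayes without trend called it higher, which is therefore no support for a difference.

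On the corin branch, neither peptide precursor passed the test. Nppa, which encodes the atrial natriuretic peptide precursor that corin cuts, was at 14.71, 14.71 and 14.66 on wildtype-labelled arrays 1, 2 and 3 and at 14.79, 14.59 and 14.81 on Rhau KO-labelled arrays 1, 2 and 3 (log2 signal). Its groups overlapped and lay near the top of the scale, where saturation was not tested. Nppb, the precursor of the B-type peptide, ranged from 13.19 to 13.61 and from 12.83 to 13.55, a difference of -0.33 (SE 0.168). Without replicate 1 labelled Rhau KO, the highest of its group, Nppb differed by -0.56 and was called lower (limma, adjusted p = 0.00908). Its difference adjusted for Y-linked signal was 0.54 (SE 0.220), and within the 3 mixed arrays it was 0.0028 (SE 0.212), both without a call, so its direction turned with the handling of those arrays. Npr3, the clearance receptor, was the only 1 of 5 genes above the filter that passed: its 10.90 ± 0.03 and 11.32 ± 0.10 differed by 0.41 (SE 0.0620, limma, adjusted p = 0.00198). Its other probe sets, at 0.59 and 0.58, were called higher as well. Adjusted for Y-linked signal the brightest Npr3 probe set differed by 0.55 (SE 0.135) without a call. Within the 3 mixed arrays it differed by 0.44 (SE 0.116). The median of the list was 0.03, beside 0.01 over all genes, of which 6.77% were called higher and 9.75% lower.

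Growth factor precursors with convertase sites mostly did not pass. Of 19 above the filter, Bmp2 and Igf1 rose, Bmp4 fell and 16 did not pass, with a median of -0.05. Over all genes 6.77% were called higher and 9.75% lower, with a median of 0.01. Bmp4, a ligand of outflow and cushion development whose precursor is cut by furin and PCSK6, was at 11.65, 11.65 and 11.70 on wildtype-labelled arrays 1, 2 and 3 and at 11.23, 11.24 and 11.07 on Rhau KO-labelled arrays 1, 2 and 3 (log2 signal). It fell by 0.49 on the log2 scale (SE 0.0603, limma, adjusted p = 6.55e-04) and kept its call without each single array. Bmp2, which drives cushion formation, rose by 0.38 (adjusted p = 0.0226), and the growth factor gene Igf1 rose by 0.21 (adjusted p = 0.0306). Bmp2 lost its call without replicate 3 labelled wildtype, at 0.28, and without replicate 1 or 3 labelled Rhau KO, at 0.35 each. Igf1 lost it without replicate 1 or 3 labelled wildtype, at 0.20 and 0.18, and without replicate 1 or 2 labelled Rhau KO, at 0.19 and 0.20. The other Igf1 probe sets differed by 0.29 and 0.14 without a call and by 0.31 with one. Of the left-right ligands processed by PCSK6, Nodal was at 6.07 ± 0.13 and 5.83 ± 0.41 and Lefty1 at 7.08 ± 0.40 and 6.82 ± 0.38 (log2 signal, SD, n = 3 each), and Lefty2 lay below the filter. Gdf11, the ligand processed by PCSK5, differed by 0.22 without a call, and Bmp10, a ligand of trabecular growth, by -0.26.

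Receptors, adhesion proteins and proteases made as convertase precursors had 4 genes that rose and 2 that fell of 27, with a median of 0.11. Over all genes 6.77% were called higher and 9.75% lower, with a median of 0.01. Sema3c, a guidance cue for outflow tract cells, rose from 9.66 ± 0.17 to 10.43 ± 0.06 (log2 signal, SD, n = 3 each), a 1.70-fold higher level (limma, adjusted p = 4.84e-04). Its other probe set, 1420696_at, differed by 0.24 without a call. Sema3a, a related repellent cue, rose 1.58-fold (adjusted p = 9.69e-04), and its other probe sets rose by 1.37 and 0.57 on the log2 scale. The integrin genes Itga6 and Itgav, a laminin receptor chain and an RGD-binding chain, fell 1.52-fold (adjusted p = 1.34e-04) and 1.37-fold (adjusted p = 9.89e-04). Cdh2, which encodes N-cadherin of the muscle cell junctions, and the secreted protease gene Adamts1 rose by 0.34 and 0.31. The other Itga6 probe set, 1422444_at, differed by -0.73 and was called lower as well. Sema3c, Sema3a, Itga6 and Itgav kept their calls in each of the 6 fits that leave out an array. Itgav lost its call within the 3 mixed arrays, at -0.42, and with all its probe sets averaged, at -0.32; its other 4 probe sets lay below the filter, with differences of -0.97 to 0.47. The Rhau KO arrays lay wholly above the wildtype arrays for 12 of the 27 genes and wholly below for 2. Over all 12416 genes the shares were 18.4% and 18.7%. Notch1 at 0.22 and Notch2 at 0.16 were among the 12, but most of these did not pass the threshold. Of the 27 differences 20 lay above 0 and 7 below. With median centring 14 lay above 0 and 13 below, with a median of 0.04.

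**Figure D4:**
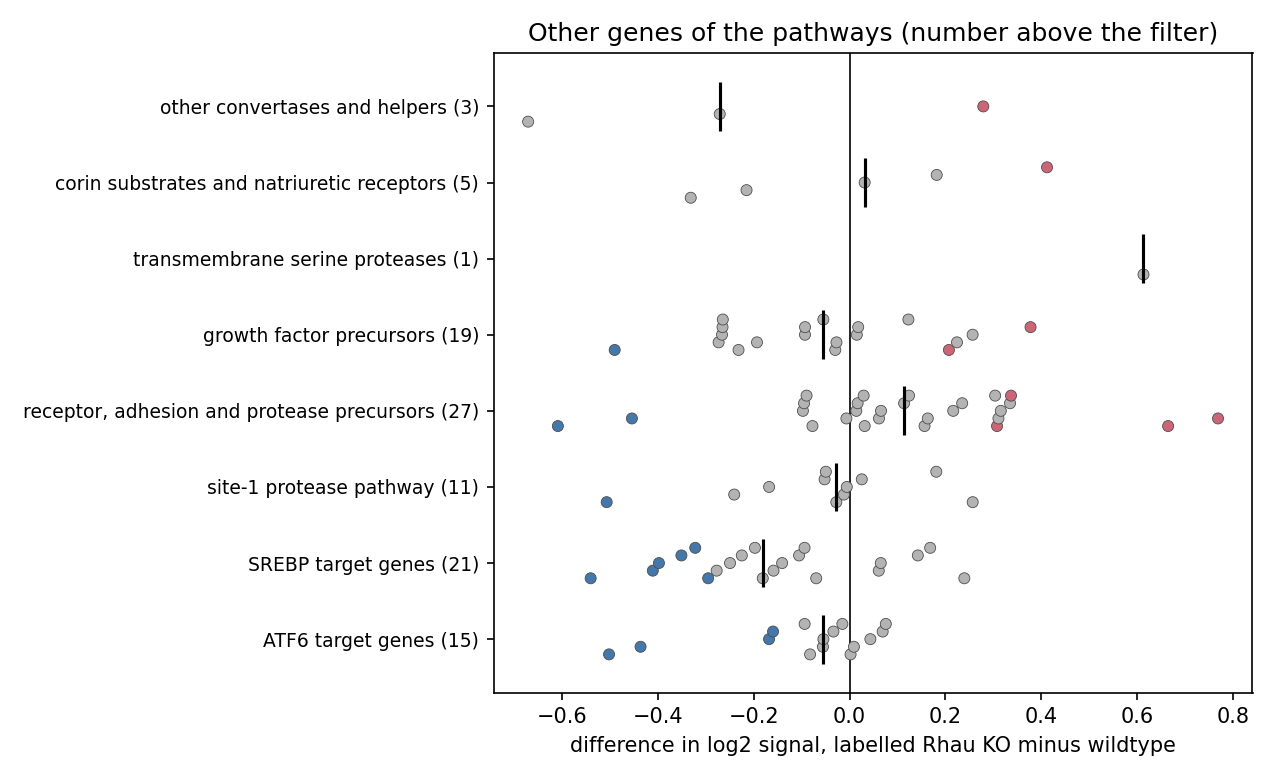
Difference in log2 signal, labelled Rhau KO minus wildtype, of each pathway gene above the filter, by list, with the number of genes in brackets; red and blue points were called higher and lower by limma, grey points were not called, and black lines are list medians. The blue points of the SREBP target list reach -0.54 and its median of -0.18 is the lowest of the lists with more than 10 genes.

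MBTPS1 cuts SREBP transcription factors, which drive sterol and fatty acid synthesis, and ATF6, which drives chaperones of the endoplasmic reticulum, before MBTPS2 does. Of 11 measured genes of this cleavage pathway above the filter, Insig2 fell and 10 did not pass, with a median of -0.03. The shares called over all genes were 9.75% lower and 6.77% higher, with a median of 0.01. Insig2, which retains the SREBP complex in the endoplasmic reticulum, was at 10.45, 10.60 and 10.43 on wildtype-labelled arrays 1, 2 and 3 and at 10.10, 9.79 and 10.07 on Rhau KO-labelled arrays 1, 2 and 3 (log2 signal). It fell by 0.51 (SE 0.0914, limma, adjusted p = 0.00520), and its other probe sets fell by 0.54 and 0.65. Adjusted for Y-linked signal the brightest Insig2 probe set differed by -0.36 (SE 0.203) without a call. Within the 3 mixed arrays it differed by -0.48 (SE 0.146). The substrates themselves were not called, with Srebf1 at -0.0058, Srebf2 at 0.18 and Atf6 at -0.03.

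Among 21 SREBP target genes 6 fell, 0 rose and 15 did not pass, with a median of -0.18 beside 0.01 over all genes. Of all genes 9.75% were called lower and 6.77% higher. By sign alone 16 of the 21 differences were below 0. Fdps, a synthase of the mevalonate pathway, had the lowest value: it was at 11.53, 11.61 and 11.57 on wildtype-labelled arrays 1, 2 and 3 and at 11.07, 11.00 and 11.02 on Rhau KO-labelled arrays 1, 2 and 3 (log2 signal). It fell 1.45-fold (limma, adjusted p = 1.65e-04). The sterol synthesis genes Nsdhl, Sc5d and Hsd17b7 fell by 0.40 (adjusted p = 0.00624), 0.41 (adjusted p = 0.0306) and 0.35 (adjusted p = 0.0438), and Hmgcs1 and the desaturase gene Scd2 also passed, at -0.32 and -0.29. Fasn and Acaca, of fatty acid synthesis, were at 0.17 and 0.14 without a call. Averaging all probe sets of a gene, among them one that ranged from 0 to 3.13 and so below the filter, turned Fdps to 0.08, and other Sc5d probe sets differed by -0.0056 and 0.05 without a call. The other Hsd17b7 probe sets differed by -0.44, -0.42 and -0.31 without a call. Fdps and Nsdhl kept their calls without each single array. Sc5d lost it without replicate 1, 2 or 3 labelled wildtype or replicate 2 labelled Rhau KO, at -0.45 to -0.30, and Hsd17b7 without replicate 1, 2 or 3 labelled wildtype or replicate 2 or 3 labelled Rhau KO, at -0.37 to -0.23. The count of genes that fell was 4 without replicate 1, 2 or 3 labelled wildtype or replicate 2 labelled Rhau KO, and 1 within the 3 mixed arrays. Adjusted for Y-linked signal it was 0, with a median of -0.12.

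Of 15 ATF6 targets 4 fell, 0 rose and 11 did not pass, where 9.75% of all genes were called lower and 6.77% higher. Their median was -0.05, beside 0.01 over all genes. Adjusted for Y-linked signal 0 were called, with a median of -0.20. Within the 3 mixed arrays the median was -0.10. Herpud1, which acts in degradation at the endoplasmic reticulum, was at 10.62, 10.61 and 10.62 on wildtype-labelled arrays 1, 2 and 3 and at 10.17, 10.01 and 10.16 on Rhau KO-labelled arrays 1, 2 and 3 (log2 signal), a fall of 1.42-fold (limma, adjusted p = 9.65e-04). Its other probe set, 1435626_a_at, differed by -0.25 without a call. Sdf2l1, a partner of chaperones there, fell 1.35-fold (adjusted p = 0.00212). The chaperone gene Hspa5 and the transcription factor gene Xbp1 fell by 0.17 (adjusted p = 0.0401) and 0.16 (adjusted p = 0.0424). The other Hspa5 probe sets differed by -0.22 with a call and by -0.10 without one. The other 3 Xbp1 probe sets differed by 0.04, 0.08 and -0.07 without a call, and the mean of all its probe sets by -0.03. The calls of Hspa5 and Xbp1 were lost with quantile normalization, at -0.10 and -0.13. Hspa5 was also lost without each of 5 single arrays (replicate 3 labelled Rhau KO excepted), at -0.18 to -0.15, and Xbp1 without each of the 6, at -0.17 to -0.15. Herpud1 and Sdf2l1 kept their calls without each single array, and the count that fell was 2 or 3 in these fits. Adjusted for Y-linked signal they differed by -0.48 (SE 0.152) and -0.41 (SE 0.152), without a call. Sdf2l1 differed by -0.45 (SE 0.126) within the 3 mixed arrays. Chaperone genes such as Hsp90b1, Calr and Pdia4 differed by -0.08, 0.07 and 0.08 without a call.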

How the data were processed

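Biotin-labelled cRNA from total RNA of each heart sample went on its own array, per the labels' protocols. The authors deposited log2 signals made with MAS5, per the submitters' processing notes; no version of it is stated there. Linear signals of each array had a mean of 500 after trimming 2% at both ends. The deposited log2 values were used without further normalization, and 0 columns were unmatched. Detection calls were not used here. Of 45101 probe sets, 64 controls were left out, and 34945 of the rest name 1 gene. Symbols were updated by Entrez identifier, which the RefSeq table of GRCm38.p6 held for 34741 of these. Probe sets in the lowest 40% of mean signal, below 5.90, were not tested, which left 27022.

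Labels were compared with lmFit and trended eBayes of limma 3.58.1 (R 4.3.3) and Benjamini-Hochberg adjustment over these 27022 probe sets at 0.05, two-sided; every adjusted p is limma's. Members, lists, tests and alternatives were chosen with earlier results of these data known. Named are all member probe sets; up to 4 called, non-overlapping genes of each pathway list, or else 2 as values; up to 2 of each marker list; and the 5 most correlated profiles. Genes such as Cdh2, Hmgcs1, Scd2, Nppa and the further uncalled ones are named outside this rule, after their values were seen. The procedure was tested on simulated data. Alternatives were pseudocounts, normalization, centring, filters, untrended eBayes, array weights, a replicate block, averaged probe sets, single arrays left out, and 2 handlings of Y-linked signal. Same-numbered arrays of the labels did not deviate together (correlations of -0.00028, 0.04 and 0.0055). Tables and plots were made with Python 3.11.15, pandas 2.3.3 and matplotlib 3.10.9.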

Additional observations from a re-analysis of the deposited data

How the results depend on the processing

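Pseudocounts of 1 and 64, array weights, quantile normalization and the replicate number as a block kept the total counts of called probe sets, members and pathway genes within 1.5 times (with the block, 1684 probe sets higher and 1760 lower against 1824 and 1858, and 8 and 14 pathway genes). The block changed no call of the 6 genes, but among pathway genes Mbtps2 (adjusted p = 0.0563) and Xbp1 (0.0670) lost their calls, and Nppb (0.0497) and Adamts5 (0.0365) gained one. Within single lists, quantile normalization left 2 of 4 ATF6 targets called lower, without Hspa5 and Xbp1, and Tgfb2 and Adam9 gained a call. Median centring gave 1007 probe sets higher against 2528 lower, 2 member probe sets lower (Pcsk5 1437339_s_at beside Furin) and 4 pathway genes higher. Leaving out the lowest 60% gave 0 member probe sets higher, because Pcsk6 then lies below the filter. No filter gave 1295 probe sets higher against 1506 lower. eBayes without trend gave 886 and 903 probe sets, 0 members lower, and 4 and 8 pathway genes. Leaving out 1 array gave 1046 to 1283 probe sets higher and 1139 to 1574 lower, 1 to 2 members higher and 0 to 1 lower, and 5 to 8 pathway genes higher and 10 to 13 lower. Adjusting for Y-linked signal, which follows the labels and widens the errors, gave 28 and 110 probe sets, 0 and 0 members, and 0 and 0 pathway genes. The 3 mixed arrays gave 501 and 515 probe sets, 0 members lower, and 3 and 4 pathway genes, with 1 array under the wildtype label assumed to vary like the others. Of the called pathway genes, Hsd17b7 (0.0326) turned its sign with that adjustment, as did the Y-linked genes that define it, Eif2s3y (-2.07) and Kdm5d (-0.93) among them. Among uncalled values, signs turned for the member probe sets of Corin (0.23), Pcsk5 1451406_a_at (0.22), Mbtps1 1431385_a_at (0.07) and 1431386_s_at (1.40). Among uncalled pathway genes they turned for Nppb (0.54) and for others not named here. With averaged probe sets, signs turned for Fdps (0.0800), Vcan (-0.15) and, among the members, Mbtps1 (-0.0026). Beyond the construction of each alternative, the cause was not tested. Signals near the filter level, as for Pcsk6 under the wildtype label, limit how well a fold is known, and so does the number of arrays.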
